A study of Homo sapiens with 7 samples.

Results

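The mitotic genes are a list of 39 genes named for their part in cell division, and all 39 were found by symbol among the 14535 genes of the deposited table. The list is one of names and its rule uses no measured value, but it was chosen with earlier results of these data known. Their transcripts were counted in 2 groups of sorted A549 cells, a human epithelial line established from a lung adenocarcinoma. The stretch group has 4 libraries (4, 5, 6 and 7) and had 24 h of cyclic stretch, to 15% elongation with 15 cycles in each minute. The doxorubicin group has 3 libraries (1, 2 and 3) and had 100 nM doxorubicin, a topoisomerase II poison, over 24 h. Cells of both groups were stained 6 days later for β-galactosidase, whose activity marks senescent cells, and the positive ones were sorted for RNA. No untreated or unsorted cells were analysed here, so a level cannot be set against that of dividing A549 cells. A549 is a single tumour line, and the labels do not say whether libraries of a group came from separate cultures.

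Mitosis begins when CDK1 with cyclin B is switched on by CDC25 phosphatases, and it ends when the anaphase promoting complex destroys cyclin B and securin once every kinetochore is attached to the spindle. The genes for this machinery are transcribed late in the cell cycle by the MuvB complex with B-MYB and FOXM1. In arrested cells the p53 target p21 lets the DREAM complex, MuvB with a retinoblastoma-like pocket protein and E2F4, silence them. Low mitotic transcripts are therefore used as a sign that cells have left the cycle. MuvB binds a short element known as the cell cycle genes homology region, and many of these promoters also hold CCAAT boxes for the factor NF-Y.

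Promoters are shown because many genes of this machinery are known to hold these elements. The choice of the list did not use them, but a high share was foreseeable and is no test. RefSeq promoters (build GRCh38.p14, 250 bases before to 50 after the start) were matched for 32 of the 39 genes, and AURKA, BIRC5, BUB3, FOXM1, TPX2, TTK and UBE2C were not matched. TTTGAA or TTCGAA, on either strand, was found in 21 of 32 (65.6%), against 16.4% of all 35116 promoters in the table. CCAAT, on either strand, was found in 23 of 32 (71.9%), against 34.6% of all promoters. Both were found in 17 of 32 (53.1%), against 6.38% of all promoters. A match describes the letters and is no sign of binding in these cells. Among those with both, the gene of highest mean level was taken in each class of role and the 6 highest of these are shown. The spindle checkpoint and midzone classes, where BUB1, MAD2L1, ECT2, KIF23 and PRC1 also hold both, are not shown. They lie at chr10:128126374-128126673 on the minus strand (MKI67), chr15:59104896-59105195 on the plus strand (CCNB2), chr16:23678639-23678938 on the plus strand (PLK1), chr1:214602945-214603244 on the plus strand (CENPF), chr1:43358731-43359030 on the plus strand (CDC20) and chr14:55191536-55191835 on the minus strand (DLGAP5). Capitals mark both motifs, written in reverse complement where they match the other strand, and in MKI67 a pair of matches overlaps by 1 base.
MKI67: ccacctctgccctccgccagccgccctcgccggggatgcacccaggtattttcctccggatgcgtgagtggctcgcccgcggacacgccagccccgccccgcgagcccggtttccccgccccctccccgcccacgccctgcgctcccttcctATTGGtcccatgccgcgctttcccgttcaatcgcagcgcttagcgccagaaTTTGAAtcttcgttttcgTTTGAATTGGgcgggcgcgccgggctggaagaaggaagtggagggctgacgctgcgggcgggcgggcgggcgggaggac
CCNB2: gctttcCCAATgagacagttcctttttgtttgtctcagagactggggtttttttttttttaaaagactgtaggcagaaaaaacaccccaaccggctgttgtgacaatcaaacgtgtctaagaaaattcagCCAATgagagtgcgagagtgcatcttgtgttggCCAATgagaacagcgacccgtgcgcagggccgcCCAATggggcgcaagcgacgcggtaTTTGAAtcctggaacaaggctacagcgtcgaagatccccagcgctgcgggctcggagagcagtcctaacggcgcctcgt
PLK1: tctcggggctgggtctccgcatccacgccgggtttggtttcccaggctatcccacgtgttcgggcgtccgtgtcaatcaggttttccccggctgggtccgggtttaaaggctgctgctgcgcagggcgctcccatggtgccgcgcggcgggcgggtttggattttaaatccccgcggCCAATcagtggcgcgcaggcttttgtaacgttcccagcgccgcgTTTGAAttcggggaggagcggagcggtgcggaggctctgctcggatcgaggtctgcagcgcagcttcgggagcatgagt
CENPF: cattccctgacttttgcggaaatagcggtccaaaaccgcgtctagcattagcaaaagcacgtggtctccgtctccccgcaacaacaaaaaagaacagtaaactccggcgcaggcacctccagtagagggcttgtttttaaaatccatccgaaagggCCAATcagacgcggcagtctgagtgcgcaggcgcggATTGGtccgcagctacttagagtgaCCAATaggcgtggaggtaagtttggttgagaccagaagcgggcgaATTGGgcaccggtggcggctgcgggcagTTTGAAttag
CDC20: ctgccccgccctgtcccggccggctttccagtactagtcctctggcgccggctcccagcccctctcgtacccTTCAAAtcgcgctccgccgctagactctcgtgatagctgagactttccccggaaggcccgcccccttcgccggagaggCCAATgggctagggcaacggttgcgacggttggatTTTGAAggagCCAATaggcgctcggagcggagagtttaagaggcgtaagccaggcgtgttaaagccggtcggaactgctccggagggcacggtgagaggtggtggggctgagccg
DLGAP5: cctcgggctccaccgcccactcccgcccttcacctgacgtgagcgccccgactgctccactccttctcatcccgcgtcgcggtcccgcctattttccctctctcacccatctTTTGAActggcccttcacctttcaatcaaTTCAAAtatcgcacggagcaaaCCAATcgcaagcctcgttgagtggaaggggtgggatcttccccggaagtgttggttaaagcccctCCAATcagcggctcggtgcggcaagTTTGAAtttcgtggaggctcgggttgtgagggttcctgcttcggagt
In CCNB2, PLK1 and MKI67 a TTTGAA begins 29 bases before the start, and MKI67 holds another 47 bases before it. CDC20 has one 65 bases before the start, between CCAAT boxes that begin 100 and 55 bases before it.

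Total counts ran from 5636386 to 7419778 in stretch libraries and from 2611739 to 4644250 in doxorubicin libraries. One gene, EIF4A2, took 1.67% to 2.87% of counts in stretch and 16.1%, 30.6% and 10.8% in doxorubicin libraries 1, 2 and 3. Levels are given as CPM, counts per 1000000 of the TMM-scaled library size, a scaling meant to offset such shares. A count of 3, taken as the detection level, was worth 0.320 to 0.400 CPM in stretch and 1.19, 2.59 and 0.566 CPM in doxorubicin libraries 1, 2 and 3. Doxorubicin libraries 1 and 2 stood apart from the others: their log2 CPM correlated with those of the stretch libraries at 0.863 to 0.893 and 0.746 to 0.789 over 11230 genes, against 0.923 to 0.949 for doxorubicin library 3. Library 3 correlated less with its own group, at 0.894 with doxorubicin library 1 and 0.773 with doxorubicin library 2. Doxorubicin libraries 1 and 2 correlated with each other at 0.904. Of epithelial markers, KRT8 and KRT18 had at least 339 CPM in every library. The 5 epithelial markers summed to 948 to 1268 CPM in stretch and 1928 to 3469 CPM in doxorubicin. The members differed: KRT18 had 400.3 to 513 CPM in stretch and 1016 to 2757 CPM in doxorubicin, EPCAM had 10.2 to 14.6 CPM in stretch and 0.863 to 4.53 CPM in doxorubicin, and KRT8, KRT19 and CDH1 overlapped. Of 8 alveolar type II markers 5 were in the table, at a summed 15.5 to 30.3 CPM in stretch and 20.8 to 155 CPM in doxorubicin. Nearly all of that was ABCA3 and LAMP3, while the surfactant genes SFTPB, SFTPC and SFTPD had at most 6 counts. Of 5 leukocyte markers CD68 and CD14 were in the table. CD68 had 16.7 to 19.96 CPM in stretch and 46.6 to 104 CPM in doxorubicin, and CD14 had 8.70 to 13.8 CPM in stretch and 9.91 to 11.2 CPM in doxorubicin. Of 6 fibroblast markers 5 summed to 8.96 to 11.5 CPM in stretch and 10.9 to 20.7 CPM in doxorubicin, and the 1 endothelial marker present, CDH5, had at most 9 counts in stretch and 0 in doxorubicin. The part of other cell types in the results below was not tested.

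All 39 mitotic genes were detected in both groups, but CDC25C, NDC80 and HMMR reached 3 counts in doxorubicin only in library 3. In doxorubicin library 2, 10 of 39 had under 3 counts. None of the 39 differed between the groups past the threshold. With edgeR's quasi-likelihood test over 11230 genes, 0 of 39 had an adjusted p under 0.05, where 2.32% of all genes did, 0.356% higher in stretch and 1.97% higher in doxorubicin. The lowest adjusted p was 0.175. At an unadjusted p under 0.05 there were 4, PLK1, PRC1 and CENPF on the stretch side and CDC20 on the doxorubicin side, where 23.2% of all genes had one. DESeq2 and limma-voom also called 0 of 39, where they called 10% and 1.66% of all genes. As log2 fold changes, stretch minus doxorubicin throughout, the fitted differences had a median of 0.24 and ran from -1.14 to 1.72, and 30 of 39 were positive. Over all tested genes the median was 0.02 and 51.2% were positive. The groups did not overlap for PLK1 and PRC1, both higher in stretch, where 11.5% of all genes lay wholly higher in stretch and 9.88% wholly higher in doxorubicin. In such bulk samples, fewer dividing cells and less mitotic RNA per cell cannot be told apart.

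The 3 doxorubicin libraries lay on both sides of the stretch libraries. The summed level of the 39 genes was 1885, 1258, 1525 and 1656 CPM in stretch libraries 4, 5, 6 and 7, against 948, 1284 and 2110 CPM in doxorubicin libraries 1, 2 and 3. Doxorubicin library 3 was thus the highest of all 7 and library 1 the lowest, while library 2 was within the stretch range. At the stretch mean, 3988, 1832 and 8379 counts would have been met in doxorubicin libraries 1, 2 and 3. The counts met were 2392, 1488 and 11183, which is 0.600, 0.812 and 1.33 times as many. Over all tested genes, EIF4A2 included, the same ratios were 1.76, 2.89 and 1.12. These ratios of sums weigh abundant genes most. Per gene, the median log2 ratio to the stretch mean, with 1 CPM added, was -1.07, -1.15 and 0.37 over the mitotic genes. Over all tested genes it was -0.040, -0.30 and -0.026 in doxorubicin libraries 1, 2 and 3. Scaled to library totals in place of TMM, which moves the median log2 fold change of all genes to 0.71, the sums were 2509, 1588, 1908 and 2129 CPM in stretch, against 693, 569.7 and 2408 CPM in doxorubicin. Scaled to totals without EIF4A2, they were 2584, 1623, 1941 and 2186 CPM in stretch, against 825, 821 and 2700 CPM in doxorubicin. With either of these scalings doxorubicin library 2, like library 1, was below every stretch library. The spread within doxorubicin was wide: the coefficient of variation was larger there than in stretch for 36 of 39 genes (83.7% of all tested genes), with medians of 25.5% in stretch and 78.5% in doxorubicin, against 20.9% in stretch and 48.2% in doxorubicin over all tested genes.

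**Figure D1:**
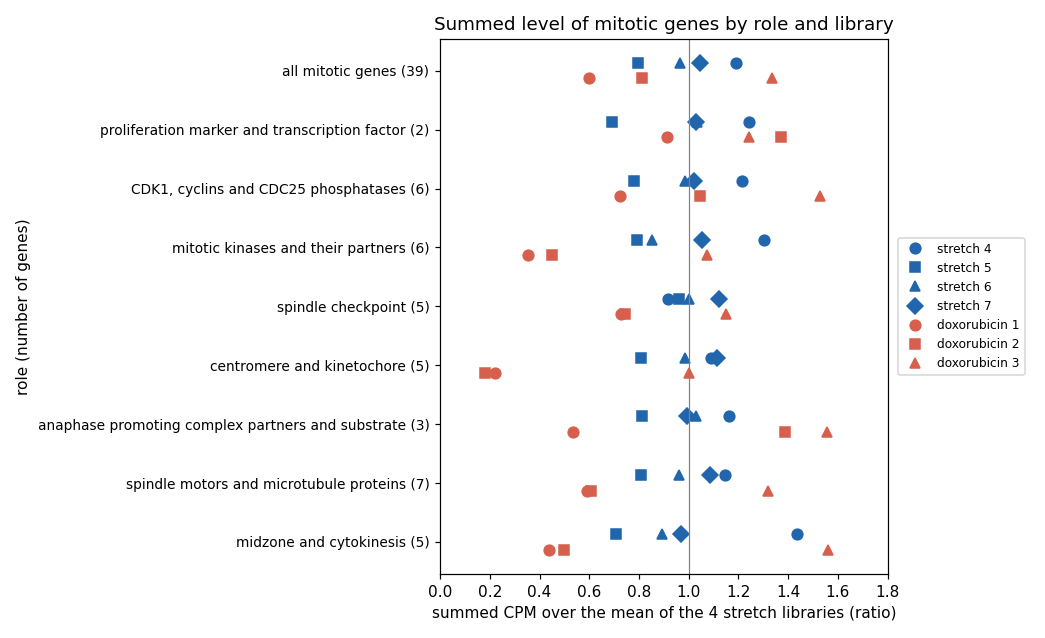
Summed CPM of the mitotic genes in each class of role, divided by the mean of the 4 stretch libraries; each point is 1 library, stretch in blue above doxorubicin in red. Doxorubicin libraries 1 and 2 sit at 0.219 and 0.181 of the stretch mean for centromere and kinetochore genes, where library 3 sits at 0.999.

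Gene by gene, doxorubicin libraries 1 and 2 were mostly low and library 3 mostly level or high. In library 1, 29 of 39 genes lay below the lowest stretch library and 2 above the highest, against 35.6% and 35.3% of all tested genes. In library 2 it was 27 below and 5 above, against 48.0% and 35.3% of all genes. In library 3 it was 4 below and 16 above, against 28.3% and 28.4%. A total of 23 genes lay below the stretch range in both library 1 and library 2, as did 30.0% of all genes, and 10 of these lay above it in library 3, as did 5.51% of all genes. The 10 were CDK1, CDC25C, AURKB, TPX2, MAD2L1, UBE2C, PTTG1, CKAP2, ECT2 and ANLN. These low libraries were also the shallow ones with the large EIF4A2 share, and the part of depth in the pattern was not tested.

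**Figure D2:**
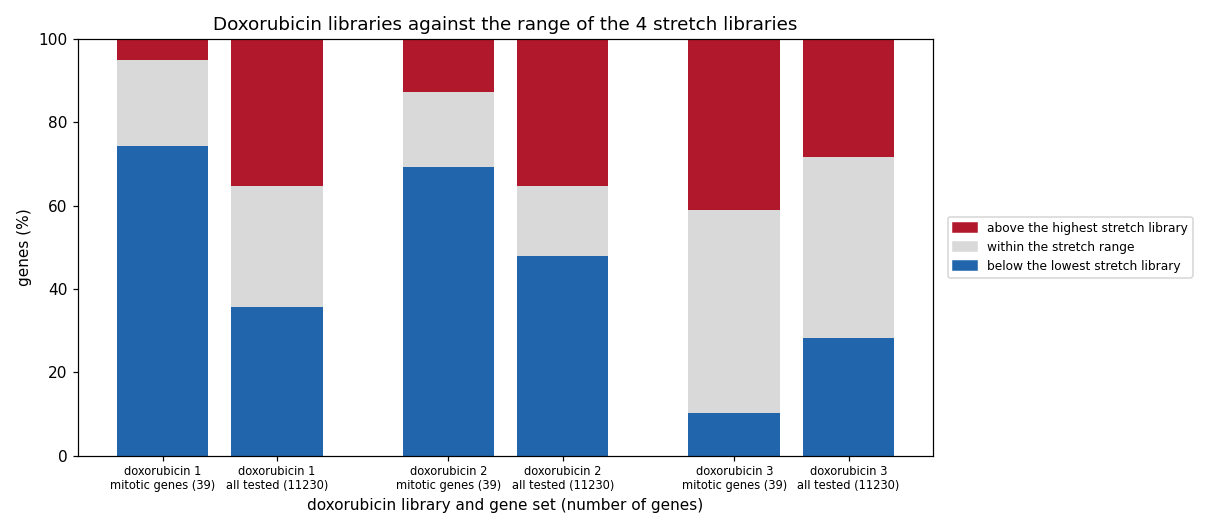
Share of genes (%) that lay below, within or above the range of the 4 stretch libraries in each doxorubicin library, for the 39 mitotic genes and for all 11230 tested genes. The mitotic genes lay below the range in 74.4% and 69.2% of cases in libraries 1 and 2, and in 10.3% in library 3.

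**Figure D3:**
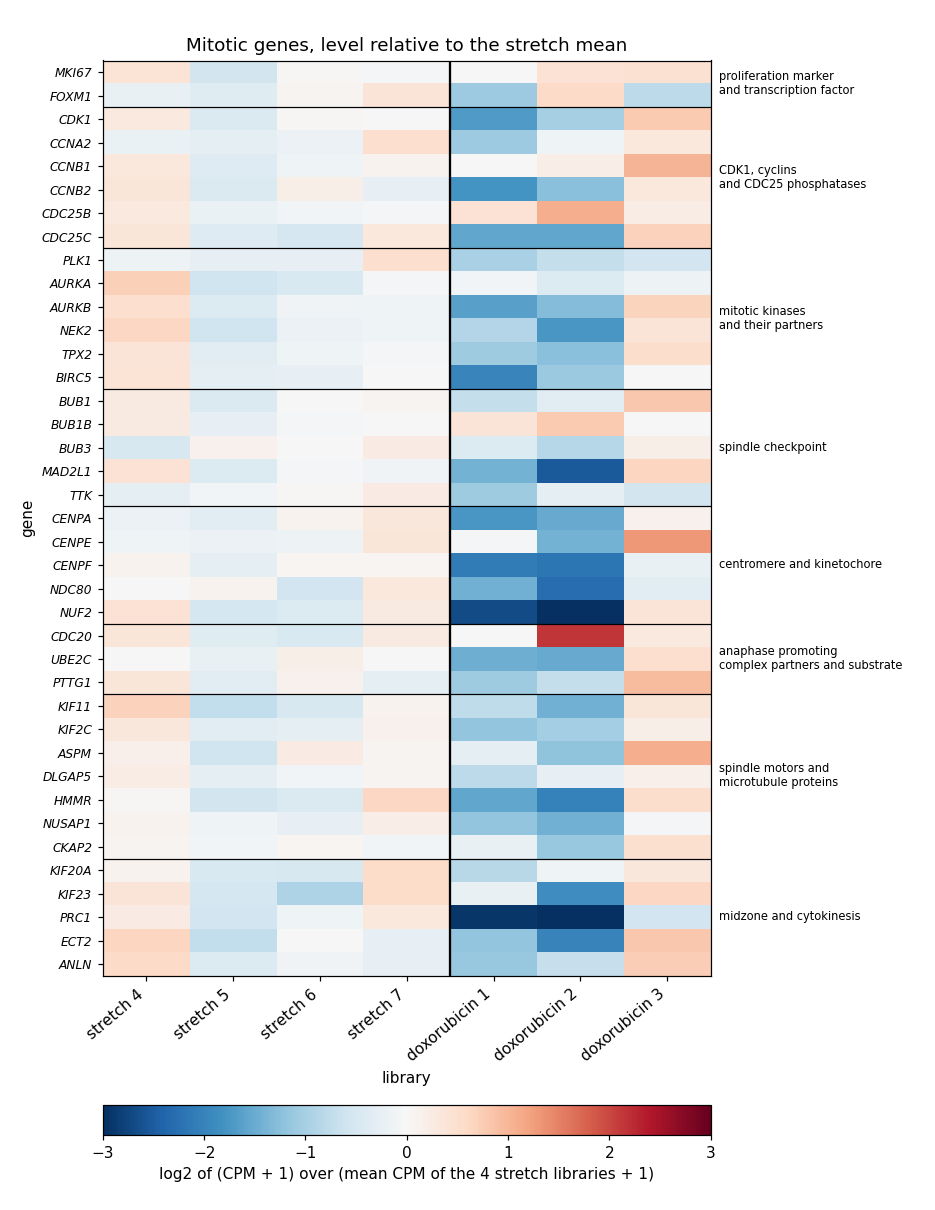
Level of each mitotic gene (rows, by role) in each library (columns), as log2 of CPM + 1 over the mean CPM of the 4 stretch libraries + 1, with colours that end at 3 in either direction. Most cells of doxorubicin libraries 1 and 2 are blue (below the stretch mean) and most of library 3 are red, while CDC20 is red in library 2.

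In what follows the CPM of stretch libraries 4, 5, 6 and 7 and of doxorubicin libraries 1, 2 and 3 are given in that order. Gene positions are those of GENCODE release 29 on GRCh38. MKI67 (chromosome 10, 128096659 to 128126385) codes Ki-67, the protein that coats mitotic chromosomes and is stained to count cycling cells. It stood at 169, 86.5, 131 and 125 CPM in stretch, against 129, 172 and 177 CPM in doxorubicin. The groups overlapped, with doxorubicin libraries 2 and 3 just above the highest stretch library (log2 fold change -0.31, SE 0.31, adjusted p = 0.566). FOXM1, the transcription factor that drives late cell cycle genes, stood at 22.5, 20.3, 27.8 and 34.4 CPM in stretch, against 11.9, 39.7 and 14.9 CPM in doxorubicin. Its doxorubicin libraries lay on both sides of all 4 stretch libraries (log2 fold change 0.30, SE 0.43, adjusted p = 0.699). By the annotation 17 of the 39 genes, FOXM1 and PLK1 among them, overlap a gene on the other strand and 7 one on the same strand. The 7 are CCNB2, NEK2, BUB1B, CENPA, ASPM, NUSAP1 and PRC1. The strandedness of the counting is not given in the sources used here, so part of their counts may be shared. The kit amplified a short part of each gene, and where that part lies was not checked, so an overlap does not show that counts are shared.

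Among CDK1, the cyclins and the CDC25 phosphatases, genes of the same switch lay on different sides of the stretch range. CCNB1 (chromosome 5, 69167010 to 69178245), cyclin B1, the partner that lets CDK1 start mitosis, stood at 136, 83.0, 99.6 and 117 CPM in stretch, against 109, 125 and 223 CPM in doxorubicin. CCNB2, cyclin B2, stood at 124, 71.2, 109 and 81.2 CPM in stretch, against 27.0, 39.7 and 119.8 CPM in doxorubicin. CCNB1 in doxorubicin libraries 1 and 2 lay within the stretch range, whereas CCNB2 lay below it in both. CDK1 itself (chromosome 10, 60778331 to 60794852) stood at 93.4, 56.1, 77.3 and 75.3 CPM in stretch, against 22.6, 37.1 and 131 CPM in doxorubicin. It had its lowest values of all 7 libraries in doxorubicin 1 and 2 and its highest in doxorubicin 3. CDC25B, a phosphatase that activates CDK1 at the centrosome, stood at 113, 78.9, 85.6 and 88.2 CPM in stretch, against 124, 195 and 106 CPM in doxorubicin. It was 1 of the 2 mitotic genes above the stretch range in both doxorubicin 1 and 2 (log2 fold change -0.63, SE 0.31, adjusted p = 0.246). CCNA2, cyclin A2, which acts in S phase and early mitosis, ran from 35.1 to 60.6 CPM in stretch and 19.4 to 53.0 CPM in doxorubicin. CDC25C, a later-acting phosphatase, ran from 1.08 to 2.80 CPM in stretch and 0 to 3.77 CPM in doxorubicin, with counts of 0, 0 and 20 in the 3 doxorubicin libraries. The log2 fold changes of CCNB1, CCNB2, CDK1, CCNA2 and CDC25C were -0.49, 0.61, 0.22, 0.20 and 0.12, none past the threshold.

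**Figure D4:**
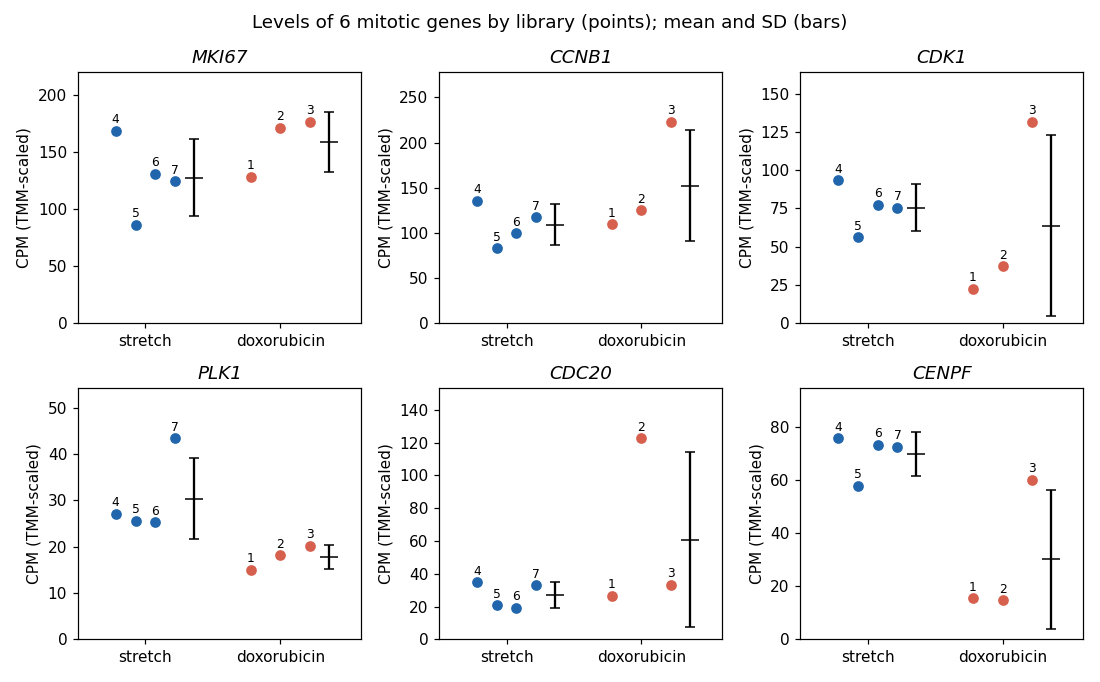
Level (CPM, TMM-scaled) of 6 mitotic genes in each library, numbered points, with the mean and SD of each group beside them (4 stretch and 3 doxorubicin libraries). CDK1 and CENPF are low in doxorubicin libraries 1 and 2, CCNB1 and MKI67 are not, CDC20 is high in doxorubicin library 2, and for PLK1 every stretch library lies above every doxorubicin library.

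Mitotic kinases and their partners all had positive differences, 6 of 6, where 51.2% of all tested genes were positive. Their median log2 fold change was 0.37. With doxorubicin library 3 alone, AURKB, TPX2 and NEK2 had -0.76, -0.53 and -0.38, and PLK1, AURKA and BIRC5 had 0.60, 0.19 and 0.016. PLK1 (chromosome 16, 23677656 to 23690367), the polo kinase that drives centrosome maturation and mitotic entry, stood at 27.1, 25.6, 25.2 and 43.4 CPM in stretch, against 15.1, 18.1 and 20.2 CPM in doxorubicin. Every stretch library lay above every doxorubicin library, library 3 included (log2 fold change 0.77, SE 0.32, adjusted p = 0.189). BIRC5 (chromosome 17, 78214186 to 78225636), survivin, the subunit that guides Aurora B to centromeres, stood at 151, 91.6, 94.1 and 114 CPM in stretch, against 27.7, 51.8 and 113 CPM in doxorubicin. TPX2, which activates Aurora A on spindle microtubules, stood at 45.2, 26.9, 30.9 and 33.3 CPM in stretch, against 15.9, 13.8 and 49.6 CPM in doxorubicin. Both were below every stretch library in doxorubicin 1 and 2, and in doxorubicin 3 BIRC5 lay within the stretch range and TPX2 above it. AURKB, the Aurora kinase of the chromosomal passenger complex, had 3, 2 and 52 counts in the doxorubicin libraries, where 14.5, 6.67 and 30.5 would match the stretch mean. AURKA, the centrosomal Aurora kinase, ran from 1.39 to 4.93 CPM in stretch and 1.73 to 2.38 CPM in doxorubicin, and all 3 doxorubicin libraries lay within the stretch range. NEK2, which splits the centrosomes, ran from 12.8 to 30.9 CPM in stretch and 5.18 to 26.0 CPM in doxorubicin. The summed level of the 6 genes in doxorubicin libraries 1, 2 and 3 was 0.353, 0.450 and 1.07 times the stretch mean.

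Spindle checkpoint genes, which hold anaphase until kinetochores are attached, were split. BUB3 stood at 66.8, 102, 94.7 and 112 CPM in stretch, against 70.2, 51.8 and 106 CPM in doxorubicin. BUB1B, which codes BubR1, stood at 33.4, 23.2, 26.9 and 27.7 CPM in stretch, against 36.5, 48.3 and 27.9 CPM in doxorubicin. BUB1B was the other gene above the stretch range in both doxorubicin 1 and 2, although it did not pass (log2 fold change -0.42, SE 0.30, adjusted p = 0.414), and its counts are uncertain because the readthrough gene BUB1B-PAK6 overlaps it on the same strand. TTK, the checkpoint kinase Mps1, stood at 24.0, 27.9, 30.3 and 35.1 CPM in stretch, against 13.5, 24.2 and 19.8 CPM in doxorubicin. MAD2L1, which codes the inhibitor Mad2, had 17, 3 and 166 counts in doxorubicin, where 49.6, 22.8 and 104 would match the stretch mean. The kinase BUB1 ran from 12.2 to 20.5 CPM in stretch and 9.91 to 30.0 CPM in doxorubicin. Log2 fold changes were 0.29 for BUB3, 0.63 for TTK, 0.42 for MAD2L1 and -0.11 for BUB1. Summed, the 5 genes stood at 0.729, 0.746 and 1.15 times the stretch mean in doxorubicin libraries 1, 2 and 3.

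By summed level, of which CENPF was the largest part, centromere and kinetochore genes lay furthest below the stretch mean in doxorubicin libraries 1 and 2. In library 3 their sum lay at it, while single genes ran from 0.738 (NDC80) to 3.37 (CENPE) times their stretch mean. In library 2 only CENPF and CENPA had any counts, 17 and 5. In library 1 CENPE lay within the stretch range. Their summed level was 115, 84.7, 104 and 117 CPM in stretch, against 23.0, 19.0 and 104.9 CPM in doxorubicin. CENPF (chromosome 1, 214603195 to 214664588), a large protein of the outer kinetochore, stood at 75.6, 57.7, 73.1 and 72.4 CPM in stretch, against 15.5, 14.7 and 60.0 CPM in doxorubicin. Doxorubicin 3 lay within the stretch range, just above its lowest library (log2 fold change 1.17, SE 0.48, adjusted p = 0.176). NUF2 (chromosome 1, 163266576 to 163355764), a subunit of the Ndc80 complex that grips microtubules, stood at 21.3, 10.5, 11.4 and 19.0 CPM in stretch, against 1.59, 0 and 20.8 CPM in doxorubicin. In doxorubicin libraries 1 and 2 it had 4 and 0 counts, where 39.2 and 18.0 would match the stretch mean. CENPA, the histone H3 variant that marks centromeres, stood at 12.4, 10.998, 15.4 and 18.1 CPM in stretch, against 3.57, 4.32 and 15.7 CPM in doxorubicin. NDC80, the partner of NUF2, had 2, 0 and 15 counts in the doxorubicin libraries and a log2 fold change of 1.23. CENPE, a kinetochore motor, was the member of the class with a negative difference (-0.84) and was barely detected, at 1.39 to 2.47 CPM in stretch and 0 to 5.66 CPM in doxorubicin. CENPA overlaps SLC35F6 on the same strand, and its counts are uncertain for that reason.

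Of the 3 genes around the anaphase promoting complex, UBE2C and PTTG1 lay on the same sides of the stretch range and CDC20 did not. CDC20 (chromosome 1, 43358955 to 43363203), which activates the complex at anaphase, stood at 34.8, 20.8, 19.4 and 33.0 CPM in stretch, against 26.6, 123 and 33.4 CPM in doxorubicin. The high value was that of doxorubicin library 2 alone, from 142 counts where 31.3 would match the stretch mean, and the other 2 lay within the stretch range (log2 fold change -1.14, SE 0.51, adjusted p = 0.208). Without that library the log2 fold change was -0.15. UBE2C, the ubiquitin-conjugating enzyme of the complex, stood at 51.3, 43.8, 58.4 and 51.5 CPM in stretch, against 17.8, 17.3 and 72.6 CPM in doxorubicin. PTTG1, which codes securin, the inhibitor of separase, stood at 50.6, 30.9, 43.1 and 32.2 CPM in stretch, against 18.2, 23.3 and 77.0 CPM in doxorubicin. Both lay below the stretch range in doxorubicin 1 and 2 and above it in doxorubicin 3. Neither passed, at log2 fold changes of 0.47 for UBE2C and -0.044 for PTTG1. UBE2C has 4 pseudogene copies by name and PTTG1 has 2 such close copies, PTTG2 and PTTG3P, so their counts are uncertain. The same holds for CDC20, which has 1 such copy. In all, 11 of the 39 genes have such copies, the others being MKI67, CCNB2, AURKA, NEK2, BUB1, BUB3, DLGAP5 and CKAP2.

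Spindle motors and microtubule proteins were low in the first 2 doxorubicin libraries, where 6 of 7 lay below the stretch range in each. DLGAP5, a microtubule stabiliser also known as HURP, stood at 134, 95.9, 108 and 123 CPM in stretch, against 66.2, 97.5 and 128 CPM in doxorubicin. ASPM, which focuses spindle poles, stood at 52.2, 30.6, 55.9 and 49.7 CPM in stretch, against 38.1, 19.9 and 101 CPM in doxorubicin. NUSAP1, which bundles microtubules near chromosomes, stood at 45.2, 38.2, 35.3 and 48.3 CPM in stretch, against 17.8, 14.7 and 40.9 CPM in doxorubicin. Of the 3, NUSAP1 was below the stretch range in doxorubicin 1 and 2 and within it in doxorubicin 3 (log2 fold change 0.73, SE 0.38, adjusted p = 0.268). The kinesin KIF11, which separates spindle poles, ran from 2.03 to 7.06 CPM in stretch and 0.863 to 5.47 CPM in doxorubicin. KIF2C, a kinesin that depolymerises microtubules, ran from 13.2 to 21.5 CPM in stretch and 6.74 to 18.9 CPM in doxorubicin. Both were below the stretch range in doxorubicin libraries 1 and 2 and within it in library 3. HMMR, which acts in spindle assembly, ran from 1.82 to 5.37 CPM in stretch and 0 to 4.91 CPM in doxorubicin, and CKAP2, which stabilises microtubules, from 13.7 to 15.6 CPM in stretch and 6.04 to 20.6 CPM in doxorubicin. CKAP2 was above the stretch range in doxorubicin 3, where HMMR was within it, and both were below it in doxorubicin 1 and 2. CKAP2 had the smallest coefficient of variation in stretch of the 39 genes, 6.98%, and one of 56.2% in doxorubicin. The 7 log2 fold changes ran from -0.20 (ASPM) to 0.73 (NUSAP1), with adjusted p of 0.268 or more.

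Genes of the midzone and cytokinesis held the largest fitted difference of the list, which did not pass. PRC1 (chromosome 15, 90966038 to 90995629), which cross-links antiparallel microtubules between the separating chromosomes, stood at 18.4, 10.04, 14.0 and 19.4 CPM in stretch, against 1.19, 0 and 9.9996 CPM in doxorubicin. The lowest stretch library and doxorubicin library 3 were almost level, at 94 and 53 counts, and the groups did not overlap (log2 fold change 1.72, SE 0.70, adjusted p = 0.175). Its 3 and 0 counts in doxorubicin libraries 1 and 2 compare with 39.04 and 17.9 at the stretch mean. The gene PRC1-AS1 lies on its other strand. ANLN (chromosome 7, 36389806 to 36453791), anillin, the scaffold of the contractile ring, stood at 144, 71.8, 89.3 and 80.6 CPM in stretch, against 43.6, 59.5 and 162 CPM in doxorubicin. ECT2, the exchange factor that activates RhoA for cytokinesis, stood at 32.0, 11.7, 20.3 and 16.9 CPM in stretch, against 8.32, 4.32 and 36.4 CPM in doxorubicin. KIF20A, a midzone kinesin, stood at 12.4, 8.12, 7.99 and 17.3 CPM in stretch, against 5.95, 10.4 and 14.7 CPM in doxorubicin. ANLN and ECT2 took the same course as CDK1, lowest in the first 2 doxorubicin libraries and highest of all in the third. KIF23, the motor of centralspindlin, ran from 4.21 to 13.4 CPM in stretch and 1.73 to 14.2 CPM in doxorubicin. Summed, the 5 genes stood at 0.437, 0.498 and 1.56 times the stretch mean in doxorubicin libraries 1, 2 and 3.

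**Figure D5:**
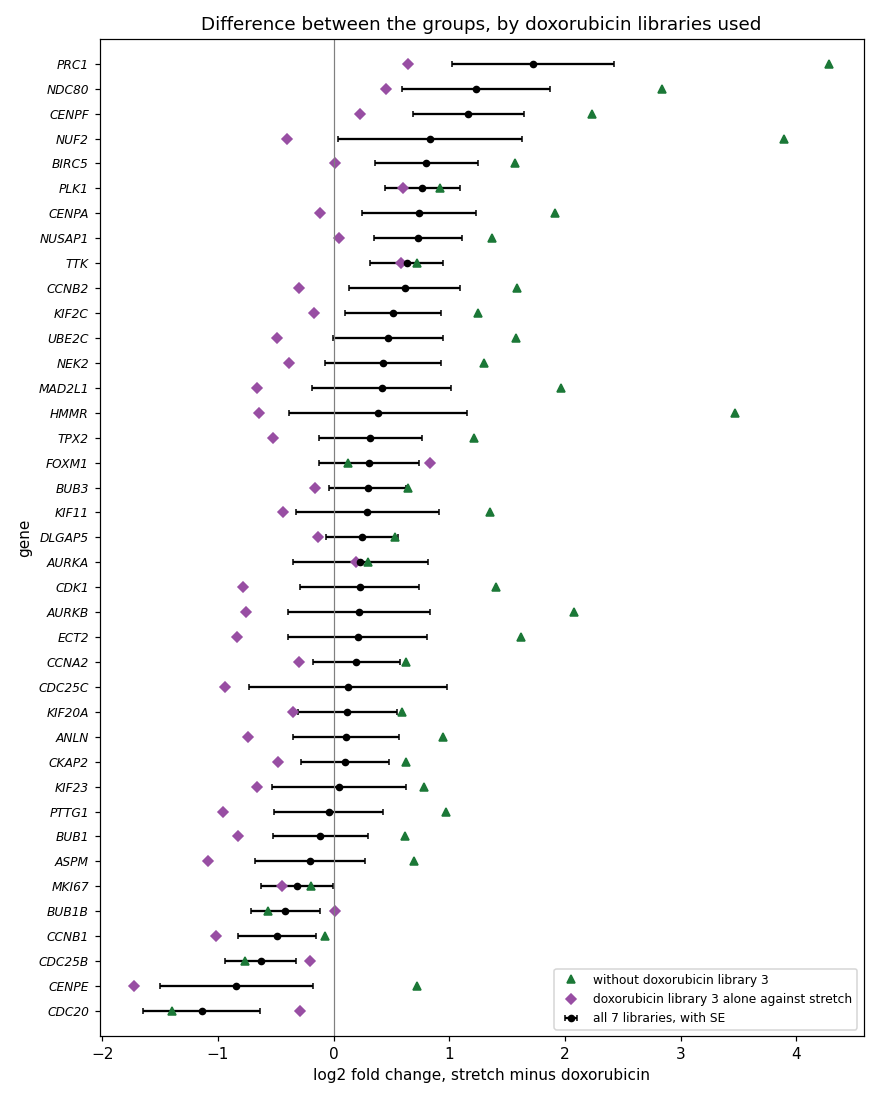
Log2 fold change (stretch minus doxorubicin) of each mitotic gene with all 7 libraries (circles, bars are SE), without doxorubicin library 3 (triangles) and with it as the only doxorubicin library (diamonds). Without library 3 the median is 0.97 and with it alone -0.38; CDC25C has no triangle because it had 0 counts in doxorubicin libraries 1 and 2.

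The calls depended on doxorubicin library 3. Without doxorubicin library 3, 19 of 39 genes passed, 18 higher in stretch, where 16% of all 11618 genes were, and 1, CDC20, higher in doxorubicin, where 16.2% were. The median log2 fold change was 0.97, against 0.15 over all genes, and stayed 0.97 with CDC25C set at its bound, at least 2.41-fold higher in stretch (floor of 3 counts over both doxorubicin libraries). The difference was positive for 34 genes, as for 55% of all, and the groups did not overlap for 24 genes higher in stretch (30.9% of all) and 2 higher in doxorubicin (24.1%). PRC1 had a log2 fold change of 4.28 (edgeR adjusted p = 0.00142, and 9.64e-05 to 0.466 over all alternatives). CENPF had 2.23 (adjusted p = 0.0008, and 1.01e-05 to 0.699 over all alternatives), and CDK1 had 1.40 (adjusted p = 0.0105, and 0.000596 to 0.978). With doxorubicin library 3 alone against stretch, 0 of 39 passed, where 0.802% of all genes did, and the median was -0.38 with 10 of 39 positive, where 52% of all genes were. The lone library lay below all stretch libraries for 4 genes and above them for 16, as for 28.6% and 28.2% of the 12344 genes of that fit. That fit assumes that the lone library varies as the stretch libraries do. There CDK1, CCNB1 and ASPM had log2 fold changes of -0.78, -1.02 and -1.09, and PLK1, TTK and PRC1 had 0.60, 0.58 and 0.64. The sign differed between these settings for 26 of 39 genes. Weighting libraries by their quality in limma, which gave doxorubicin libraries 1, 2 and 3 weights of 3.87, 0.258 and 0.204, called 24 genes higher in stretch, where 23.4% of all genes were, and 2 higher in doxorubicin, where 23.8% were. PLK1, TTK, FOXM1, PRC1, NDC80, CENPF, NUSAP1 and BIRC5 were positive in every alternative that tested them, and CDC20 was negative in every one. Some came close to 0, at 0.0066 for FOXM1, 0.016 for BIRC5, 0.043 for NUSAP1 and -0.097 for CDC20. NDC80, at a mean of 2.71 CPM, was not in the fit with a mean of at least 10 CPM. All alternatives reuse the same libraries, and the share of all genes that kept their sign was not counted.

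The stretch libraries also differed from each other along the list. Stretch library 5 was the lowest of the 4 for 30 of 39 mitotic genes, against 17.6% of all tested genes, and the highest for none. Stretch library 4 was the highest for 24 of 39, against 33.4% of all genes, and library 7 for 13, against 23.7%. The median log2 ratio of library 5 to the mean of the other 3, with 1 CPM added, was -0.46 over the mitotic genes and 0.0020 over all genes. That of library 4 was 0.41 over the mitotic genes and -0.032 over all genes. Total counts of library 5 were the highest of the 4 and those of library 4 the lowest.

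CDKN1A, which codes p21, the inhibitor upstream of DREAM, stood at 270.1, 266, 218 and 220.4 CPM in stretch, against 897, 917 and 291 CPM in doxorubicin. It was high in doxorubicin libraries 1 and 2, where most mitotic genes were low. In library 3, where they were not, it lay just above the highest stretch library. The groups thus did not overlap, where 9.88% of all genes lay wholly higher in doxorubicin, and it did not pass (log2 fold change -1.52, SE 0.39, adjusted p = 0.065). Libraries 1 and 2 were also the shallow ones with the large EIF4A2 share. A link between CDKN1A and the mitotic genes was not tested. The 13 genes of the DREAM and MuvB complexes had 0 calls by edgeR (2 at an unadjusted p under 0.05) and a median log2 fold change of -0.17. TFDP1, the partner of E2F factors, stood at 57.2, 61.6, 67.0 and 49.6 CPM in stretch, against 134, 407 and 80.4 CPM in doxorubicin. E2F5 stood at 39.3, 40.9, 43.7 and 44.1 CPM in stretch, against 92.0, 259 and 43.8 CPM in doxorubicin. Both were highest in doxorubicin library 2 and neither passed, with an adjusted p of 0.0687 for TFDP1 and 0.0914 for E2F5. RBL2, the pocket protein p130 of DREAM, averaged 75.03 ± 27.7 CPM in stretch and 124 ± 87.7 CPM in doxorubicin (SD, n = 4 and n = 3). E2F4 averaged 32.0 ± 4.24 CPM in stretch and 22.5 ± 7.39 CPM in doxorubicin, and MYBL2, which codes B-MYB, averaged 37.2 ± 7.82 CPM in stretch and 43.2 ± 22.4 CPM in doxorubicin, each with overlapping groups.

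In 5 further lists of mitotic genes outside the 39, none passed in edgeR's quasi-likelihood test, where 2.32% of all genes did, 23.2% had an unadjusted p under 0.05 and 51.2% were positive. At such shares, a count of 0 in lists of this size sets none of them apart. Of 40 tested further genes of G2 and mitosis, 0 passed (2 at an unadjusted p under 0.05), with a median log2 fold change of 0.17, and 26 were positive. KIF18B, a kinesin of astral microtubules, stood at 6.80, 10.3, 11.1 and 8.91 CPM in stretch, against 1.98, 0 and 3.96 CPM in doxorubicin, with every stretch library above every doxorubicin library (log2 fold change 1.89, SE 0.56, adjusted p = 0.0863). UBE2S, which extends ubiquitin chains for the anaphase promoting complex, lay the other way, at 294, 196, 207 and 235 CPM in stretch, against 296, 595 and 299.99 CPM in doxorubicin. CKS1B, a small CDK-binding protein, averaged 107 ± 13.6 CPM in stretch and 48.4 ± 45.0 CPM in doxorubicin, and TOP2A, the target of doxorubicin, 189 ± 27.4 CPM in stretch and 175 ± 49.1 CPM in doxorubicin. Of 28 tested kinetochore and centromere subunits that are no members, 0 passed (2 at an unadjusted p under 0.05) and the median was 0.09. There ZW10, which brings dynein to kinetochores, had a log2 fold change of 0.93. CENPN, which binds CENP-A nucleosomes, had one of 0.77, and MAD1L1, which holds Mad2 at kinetochores, one of -1.07.

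Among 15 condensin and cohesin genes, which fold and hold chromosomes, 0 passed (4 unadjusted, median 0.27). NCAPD2 of condensin I averaged 56.3 ± 13.5 CPM in stretch and 30.1 ± 10.9 CPM in doxorubicin. NCAPD3 of condensin II averaged 17.4 ± 4.10 CPM in stretch and 32.4 ± 10.8 CPM in doxorubicin. In neither did the groups overlap, as in 11.5% of all genes higher in stretch and 9.88% higher in doxorubicin. Other subunits did not all share these directions. Those of condensin I had log2 fold changes of -0.48 (NCAPG) and 0.27 (NCAPH), and those of condensin II 0.79 (NCAPG2) and -0.017 (NCAPH2). The groups overlapped for each of these genes. SMC4, a subunit of both complexes, had a log2 fold change of -0.38. Its groups did not overlap, at 175 to 225 CPM in stretch and 241 to 325 CPM in doxorubicin. STAG2 of cohesin had a log2 fold change of 1.08. Among 16 subunits and regulators of the anaphase promoting complex, 0 passed (4 unadjusted, median 0.03), with log2 fold changes of 1.35 for its subunit ANAPC15, 0.99 for its subunit CDC26 and -1.32 for FZR1, which codes the late activator Cdh1. Of 17 genes of mitotic entry control, 0 passed (3 unadjusted, median -0.08). SFN, which codes 14-3-3 sigma, had a log2 fold change of -0.73, and ARPP19, an inhibitor of the phosphatase that opposes CDK1, one of 0.86. The naming rule chose 21 genes outside the list, mostly for the lowest adjusted p in these same libraries. Their calls in other fits are therefore no separate evidence. DESeq2 called 5, KIF18B and ANAPC15 higher in stretch and TFDP1, E2F5 and CDKN1A higher in doxorubicin, where it called 10% of all genes. Limma-voom called 0, where it called 1.66% of all genes. Without doxorubicin library 3, 13 of these 21 genes passed, 8 of them higher in stretch, where 32.2% of all genes passed. With library quality weights 18 passed, of which 10 were higher in stretch, where 47.2% of all genes passed. With doxorubicin library 3 alone the medians were -0.13 for the further G2 and mitosis genes and -0.45 for the kinetochore subunits. Without that library the medians were 0.59 and 0.91, against 0.14 over the 11230 genes tested with all libraries. In that setting calls also appeared: 11 genes higher in stretch and 2 higher in doxorubicin among the 40 of G2 and mitosis, and 8 higher in stretch among the 28 kinetochore subunits. There were 4 higher in stretch among the 15 condensin and cohesin genes, 4 higher in stretch and 1 higher in doxorubicin among the 16 of the anaphase promoting complex, and 2 in each direction both among the 17 of mitotic entry control and among the 13 of DREAM and MuvB. Over all genes 16% were called higher in stretch and 16.2% higher in doxorubicin.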

How the data were processed

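Libraries of 7 sorted A549 samples (4 stretch, 3 doxorubicin, grouped by title) were made with an Ion AmpliSeq human transcriptome kit, per the labels' protocols, which amplifies a short part of each gene. Its reads carry no molecular identifiers. The authors deposited whole-number estimated counts per gene, not normalised. Per the submitters' processing notes, fastp 0.20.1, Salmon 1.9 and GRCh38 were used, but no annotation release or strand setting is given. Rows sharing a symbol were summed, and Metazoa_SRP (at most 0.00861% of a library) was left out, leaving 14535 genes. R 4.3.3 with edgeR 4.0.16 tested 11230 genes (filterByExpr, TMM, robust quasi-likelihood fit, stretch minus doxorubicin, Benjamini-Hochberg adjustment, threshold 0.05), all 39 mitotic genes among them. All adjusted p are from edgeR unless another tool is named. SE is the size of the log2 fold change over the square root of its F. The procedure was tested on counts simulated with the dispersions of these data. It called 4% of genes changed 2-fold, 65.3% of those changed 4-fold and 93.9% of those changed 8-fold. A gene that was not called may therefore still differ. Alternatives were other scalings and filters, each library left out, doxorubicin library 3 alone, limma 3.58.1 and DESeq2 1.42.0. No pair of the 21 agreed within sampling noise (chi-square per degree of freedom at least 8.63). P-values measure the spread between libraries, which may be technical. Members, roles and lists were chosen with earlier results of these data known. Values per library are given for the 3 genes with the highest mean CPM per role, and for CDK1 and PRC1, chosen after their values were seen. Up to 3 genes per further list with the lowest adjusted p are named, with CDKN1A, MYBL2, RBL2 and TOP2A. The condensin subunits NCAPG, NCAPG2, NCAPH, NCAPH2 and SMC4 were added after their values were seen. Because amplicons differ, levels are compared between libraries and not between genes.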

Additional observations from a re-analysis of the deposited data

Results flagged for a closer look

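In 4 of 69 sets of 4 stretch libraries examined (the genes and sums named above), the value of 1 library lay far from the others by Dixon's criterion, where chance gives about 1 in 20. All 4 were high values in stretch library 7. CCNA2 stood at 60.6 CPM there, against 35.1 to 37.9 CPM in the other stretch libraries. PLK1 stood at 43.4 CPM there, against 25.2 to 27.1 CPM. CENPE stood at 2.47 CPM there, against 1.39 to 1.47 CPM, which rests on 23 counts. SFN stood at 15.0 CPM there, against 10.5 to 10.9 CPM. Without stretch library 7 the log2 fold change of PLK1 was 0.54, and 0.77 with all libraries.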

How the results depend on the processing

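No paired analysis was possible because the groups share no replicate number. Of 39 mitotic genes, 0 were called with all libraries and under RLE factors, library totals, no filter, a mean of at least 10 CPM, DESeq2, limma-voom, doxorubicin library 3 alone, and leaving out any 1 library but doxorubicin 3. Leaving out each of the 7 in turn gave 0 to 19, and the 19 came without doxorubicin library 3. The mean of at least 10 CPM left 31 of 39 genes, and leaving out stretch 4 or 7 left 38 and 37. Library quality weights gave 26 (24 higher in stretch, where 23.4% of all genes were), with weights of 3.87, 0.258 and 0.204 for doxorubicin libraries 1, 2 and 3. The median log2 fold change was 0.24, 0.83 with library totals (where that of all genes was 0.71), 0.83 with quality weights, -0.38 with doxorubicin library 3 alone, and 0.036 to 0.97 without each library. Positive differences numbered 30, and 10 with doxorubicin library 3 alone, and 21 to 34 without each library. The cause was not tested. Groups that do not overlap numbered 2, and 5 with library totals (where 30.2% of all genes lay wholly higher in stretch). They numbered 20 with doxorubicin library 3 alone, where 28.6% of all genes lay wholly higher in stretch and 28.2% wholly higher in doxorubicin. Without each library they numbered 2 to 26. The 26 came without doxorubicin library 3, where these shares of all genes were 30.9% and 24.1%. CDC25C ran high where both remaining doxorubicin libraries had 0 counts. Genes whose log2 fold change changed sign were as follows. With library totals, MKI67 0.41, CCNB1 0.11, CDC25B 0.24, BUB1 0.44, BUB1B 0.42, PTTG1 0.43, ASPM 0.25, UBE2S 0.13, MYBL2 0.63 and RBL2 0.31. Without a filter, PTTG1 0.025. With limma-voom, AURKA -0.050 and PTTG1 0.13. With library quality weights, AURKA -0.43, BUB1 0.45, PTTG1 0.77, ASPM 0.077, KIF23 -0.063 and MYBL2 0.56. With doxorubicin library 3 alone, CDK1 -0.78, CCNA2 -0.30, CCNB2 -0.30, CDC25C -0.94, AURKB -0.76, NEK2 -0.38, TPX2 -0.53, BUB1B 0.0081, BUB3 -0.17, MAD2L1 -0.66, CENPA -0.12, NUF2 -0.40, UBE2C -0.49, KIF11 -0.44, KIF2C -0.17, DLGAP5 -0.13, HMMR -0.64, CKAP2 -0.48, KIF20A -0.35, KIF23 -0.66, ECT2 -0.84, ANLN -0.74, CENPN -0.031, RBL2 0.37 and TOP2A -0.16. Without each library, values that changed sign ran over CDK1 -0.17 to 1.40, CCNA2 -0.11 to 0.62, CDC25C -0.39 to 6.68, AURKA -0.26 to 0.44, AURKB -0.22 to 2.08, BUB1 -0.40 to 0.61, CENPE -1.19 to 0.72, PTTG1 -0.38 to 0.97, KIF11 -0.12 to 1.35, ASPM -0.57 to 0.70, HMMR -0.066 to 3.47, CKAP2 -0.19 to 0.62, KIF20A -0.16 to 0.59, KIF23 -0.32 to 0.78, ECT2 -0.18 to 1.62, ANLN -0.21 to 0.95, MYBL2 -0.51 to 0.23, RBL2 -1.02 to 0.035 and TOP2A -0.086 to 0.33. Depth limits doxorubicin library 2 most, where 10 of 39 genes had under 3 counts and 6 had 0; it was 3 and 1 in library 1 and 0 in the others. Of 60 genes followed (the 39 and 21 others), 0 were called with all libraries. DESeq2 called 5, limma-voom 0, limma-voom with quality weights 44 and edgeR without doxorubicin library 3 32. Over all genes the shares called were 2.32% with all libraries, 10%, 1.66%, 47.2% and 32.2%, in that order. The 21 others were mostly picked for a low adjusted p in these same libraries.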
